A study of Mus musculus with 12 samples.

Results

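The 3 arrays of C2C12 cells kept for 8 days in differentiation medium were compared with the 3 arrays of proliferating C2C12 cells, the widest span of the course. C2C12 is an immortalised mouse myoblast line, that is, a line of muscle precursor cells that stop dividing and fuse into multinucleated myotubes once serum is lowered. Day 8 cells had been moved to DMEM with a low share of horse serum, and proliferating cells were taken from DMEM with fetal bovine serum before that move, so the groups differ in serum and in time in culture as well as in stage. The design describes independent experiments at each stage, but the labels do not tell how far the cultures were separate, and p-values reflect only how these arrays vary. All groups are of this line, and the study has 6 more arrays at days 2 and 5, giving 12 arrays in 4 stages. Of 37246 probes on the custom one-colour Agilent array, 22049 were well above background on all 3 arrays of day 8 or of proliferation and were tested, and they covered 13294 gene symbols. A value below is the log2 signal of a probe relative to its own array's 75th percentile, so 0 stands for that percentile, and a log2 fold change is day 8 minus proliferation with its standard error (SE).

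The header of each array shows that the 3 proliferation arrays shared slide 1 with 1 day 2 array, and that the 3 day 8 arrays shared slide 3 with 1 day 5 array. No slide holds both stages, so no value within a slide can be had, and stage and slide cannot be told apart from these 6 arrays alone. A fit with slide as a block links them only through the day 2 and day 5 arrays that span the slides. Its typical error was larger, with a median SE of 0.44 against 0.20, and its adjusted p is given beside each gene named here whose call it removes. A call is described as kept where that fit called the gene in the same direction. The arrays correlated at 0.992 to 0.993 among day 8 arrays, at 0.987 to 0.991 among proliferation arrays and at 0.924 to 0.931 between the stages. The percentile used for scaling was 1295 to 1820 scanner units on day 8 arrays and 1745 to 1993 on proliferation arrays. Negative-control probes had median signals of 2.25, 1.98 and 2.07 on the day 8 arrays and of 6.25, 5.39 and 2.42 on the proliferation arrays. This higher floor on proliferation arrays 1 and 2 touches probes near background, and its part in their falls was not tested. Myod1, Myf5, Des and Cdh15, which mark myogenic cells, were well above background on all 12 arrays.

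Myogenic differentiation is driven by basic helix-loop-helix (bHLH) factors of the MyoD family together with Mef2 proteins, while Id proteins and Notch target repressors hold these factors back in dividing cells. Withdrawal from the cell cycle is followed by fusion, assembly of sarcomeres from thick and thin filaments anchored at Z-discs, and formation of the calcium release apparatus and of acetylcholine receptors. In growing myoblasts E2F and the mitotic transcription programme keep the genes of DNA synthesis and chromosome segregation active.

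Day 8 cells differed from proliferating cells at most of the tested probes in the fit without slide as a block. With limma and Benjamini-Hochberg adjustment over all tested probes, 5855 probes (26.6%) rose and 6497 (29.5%) fell at an adjusted p under 0.05, or 56.0% in either direction. Among gene symbols, each taken at its brightest tested probe, 3559 (26.8%) rose and 4110 (30.9%) fell, or 57.7% together. These shares are the background against which the counts of each gene group are to be read. Changes of over 2-fold were made by 3091 risen and 3860 fallen probes, and changes of over 16-fold by 255 risen and 99 fallen probes. The day 8 and proliferation arrays did not overlap for 97.6% of risen, 97.2% of fallen and 21.6% of the remaining probes. In what follows, rose and fell are used only of genes under that threshold. Risen probes made up 47.4% of the calls, but 59.6% after a different background correction (normexp) and 81.0% when spots with a non-uniform flag were left out and each array was scaled on the spots kept. Small shifts near 0 therefore depend on the scaling. With slide as a block, 2249 probes rose and 1771 fell, and 3760 of these calls were shared with the fit without it in the same direction. In these bulk cultures a change in the share of fused cells and a change of RNA per cell cannot be told apart.

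**Figure D1:**
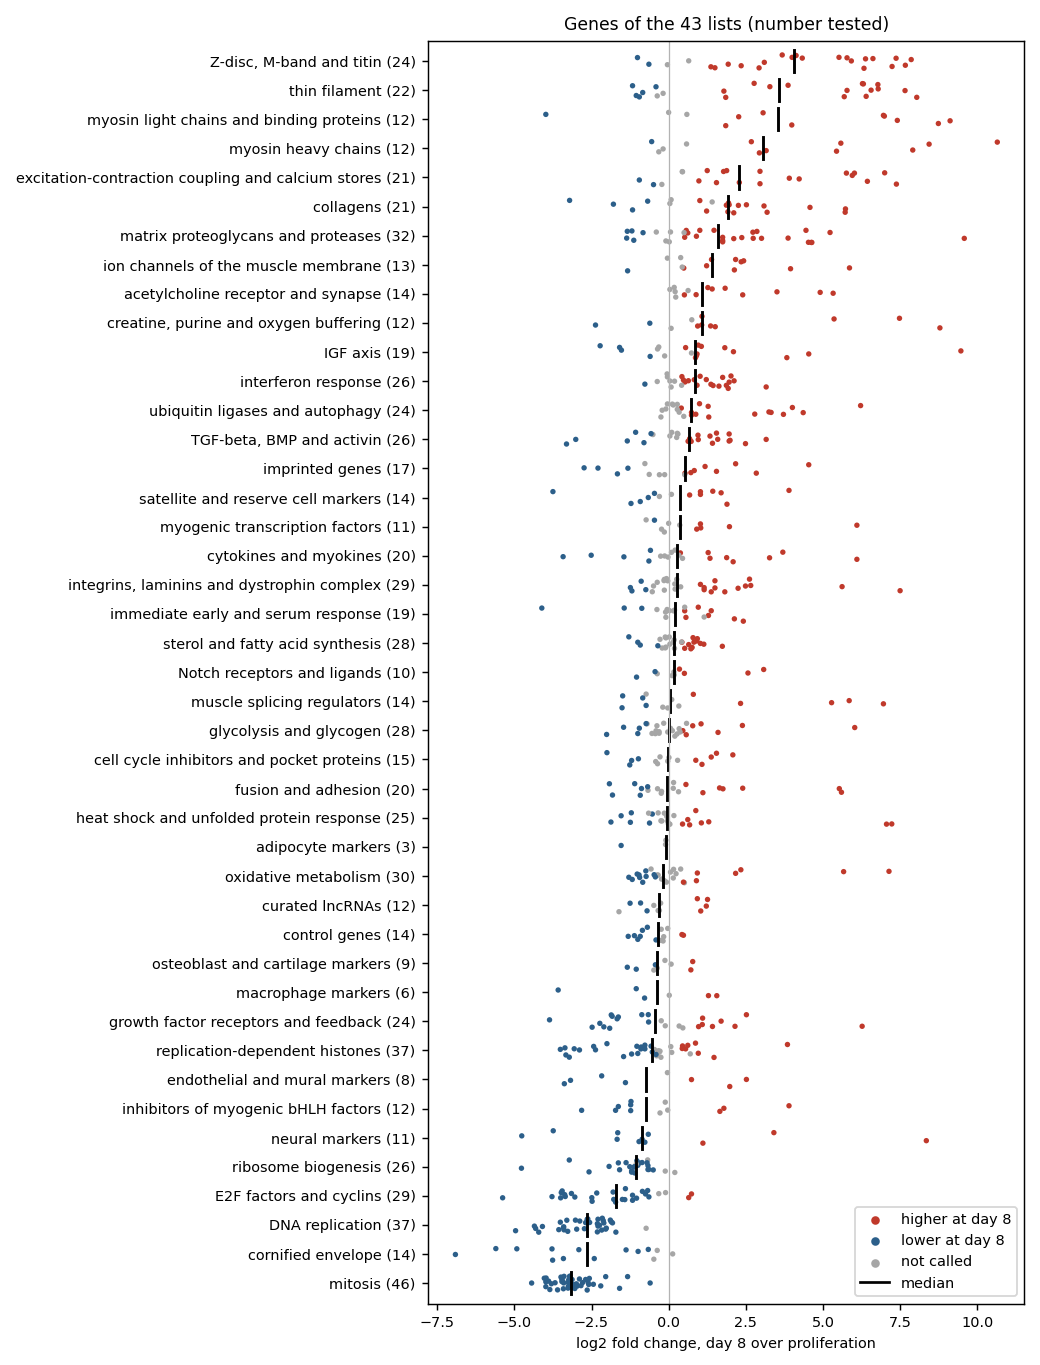
Each point is a gene of 1 of the 43 gene lists, placed by its log2 fold change (horizontal axis, day 8 over proliferation) and coloured by its call at an adjusted p under 0.05, with a black bar at the list's median. Lists run from the highest median at the top (Z-disc, M-band and titin, 4.06) to the lowest at the bottom (mitosis, -3.18), and the number tested stands in brackets.

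Among the myogenic regulators, Myog stood far above the others in its change. Myogenin, encoded by Myog, is the bHLH factor needed for terminal differentiation. Its signal was 4.91, 5.27 and 5.19 on the day 8 arrays, against -1.21, -0.62 and -1.11 on the proliferation arrays. The groups lay apart by more than 5 log2 units, and the log2 fold change was 6.10 ± 0.24 (SE, adjusted p = 7.49e-09), or 68.8-fold. Myod1, which commits cells to the myogenic lineage, had 6.36, 6.01 and 6.54 at day 8, against 5.66, 6.05 and 6.13 in proliferation. Its groups overlapped, and the log2 difference of 0.36 ± 0.17 did not pass the test (adjusted p = 0.092), although it did after quantile normalization, without day 8 array 2, and without non-uniform spots when scaled on the spots kept. Of 11 tested myogenic transcription factors 5 rose and 1 fell, with a median log2 fold change of 0.36, and 3 and 0 of these calls were kept with slide as a block. Mef2c, a partner of the MyoD family, rose by 1.97 ± 0.22. Myf5, a MyoD family member linked to dividing myoblasts, fell by 0.46 ± 0.15 (adjusted p = 0.0196). The fall of Myf5 passed no longer with slide as a block (adjusted p = 0.198), after normexp, without the filter on dim probes, or without proliferation array 1 or day 8 array 1 or 3. Myf6, the factor of mature fibres, had a log2 difference of -0.14 (adjusted p = 0.526).

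The inhibitors of bHLH factors moved in different directions, with 3 of 12 higher, 6 lower and a median of -0.75, and 2 and 3 of these calls were kept with slide as a block. Id2, which binds bHLH partners without binding DNA, had 1.54, 1.40 and 1.26 at day 8, against 3.05, 3.25 and 3.06 in proliferation. Id3 had 4.55, 4.41 and 4.81 at day 8, against 5.51, 5.92 and 6.02 in proliferation. All day 8 values of both genes lay below all proliferation values, with log2 fold changes of -1.72 ± 0.17 for Id2 and -1.23 ± 0.17 for Id3, and that of Id3 was not called with slide as a block (adjusted p = 0.203). Id1 likewise fell by 1.63 ± 0.19 (adjusted p = 0.0576 with slide as a block). Msc, which encodes the bHLH repressor musculin, had the largest fall of the group at -2.82 ± 0.21. The Notch targets Heyl and Hey1 went in opposite directions. Heyl averaged 0.33 ± 0.18 at day 8 and -3.58 ± 0.52 in proliferation (SD, n = 3 each), a rise of 3.90, whereas Hey1 fell by 1.22 (adjusted p = 0.227 with slide as a block). The repressor Zeb1 rose by 1.79 ± 0.15 and Twist1 by 1.66 ± 0.21, the second not with slide as a block (adjusted p = 0.156). Twist1 was well above background on 1 proliferation array, and the related gene Twist2 fell by 1.23 ± 0.16. Of 10 Notch receptors, ligands and partners, 4 rose and 2 fell, of which 2 and 0 were kept with slide as a block. The ligand Dll1 rose by 3.08 ± 0.20 and the receptor Notch3 by 2.57 ± 0.16. The smaller changes of Notch2 (0.51), Jag2 (-1.04) and Megf10 (-0.44) were all lost with slide as a block, at adjusted p of 0.246, 0.143 and 0.157. Without proliferation array 1 or day 8 array 1 or 3, 2 genes of this list rose, and Notch2 was not called without these or proliferation array 3.

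Genes of fusion and adhesion had 7 of 20 members higher and 6 lower, beside 26.8% and 30.9% of all gene symbols. With slide as a block 6 of these rises and 1 of the falls were kept. Mymk, which encodes the fusogen myomaker, had 3.75, 3.66 and 3.59 at day 8, against -2.09, -1.95 and -1.77 in proliferation. These groups were tight and far apart, with a log2 fold change of 5.6 ± 0.18 (adjusted p = 2.14e-09). Cdh15, the muscle cadherin, had 5.01, 4.60 and 5.30 at day 8, against 5.02, 5.13 and 5.45 in proliferation, and its overlapping groups gave -0.23 ± 0.22 (adjusted p = 0.402). Cav3, the muscle caveolin, was not well above background on any proliferation array and was at least 13.6-fold higher at day 8. Such bounds set the day 8 mean against, on each proliferation array, the higher of the lowest signal among probes well above background and the probe's own signal. They hold for that floor only. Over the alternative ways of processing the log2 fold change of Cav3 was as low as 2.1. The adhesion molecule Ncam1 rose by 2.40 ± 0.16, and by 1.25 ± 0.20 and 1.02 ± 0.10 at its other probes. Jam2, a junctional adhesion molecule, fell by 1.82 ± 0.14. Bin1, a membrane-bending protein of the T-tubules, fell by 1.92 ± 0.41, but its value with slide as a block was 0.32 (adjusted p = 0.741). Vcam1 fell by 0.92 and Adgrb1 by 1.1, both lost with slide as a block (adjusted p = 0.658 and 0.183).

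**Figure D2:**
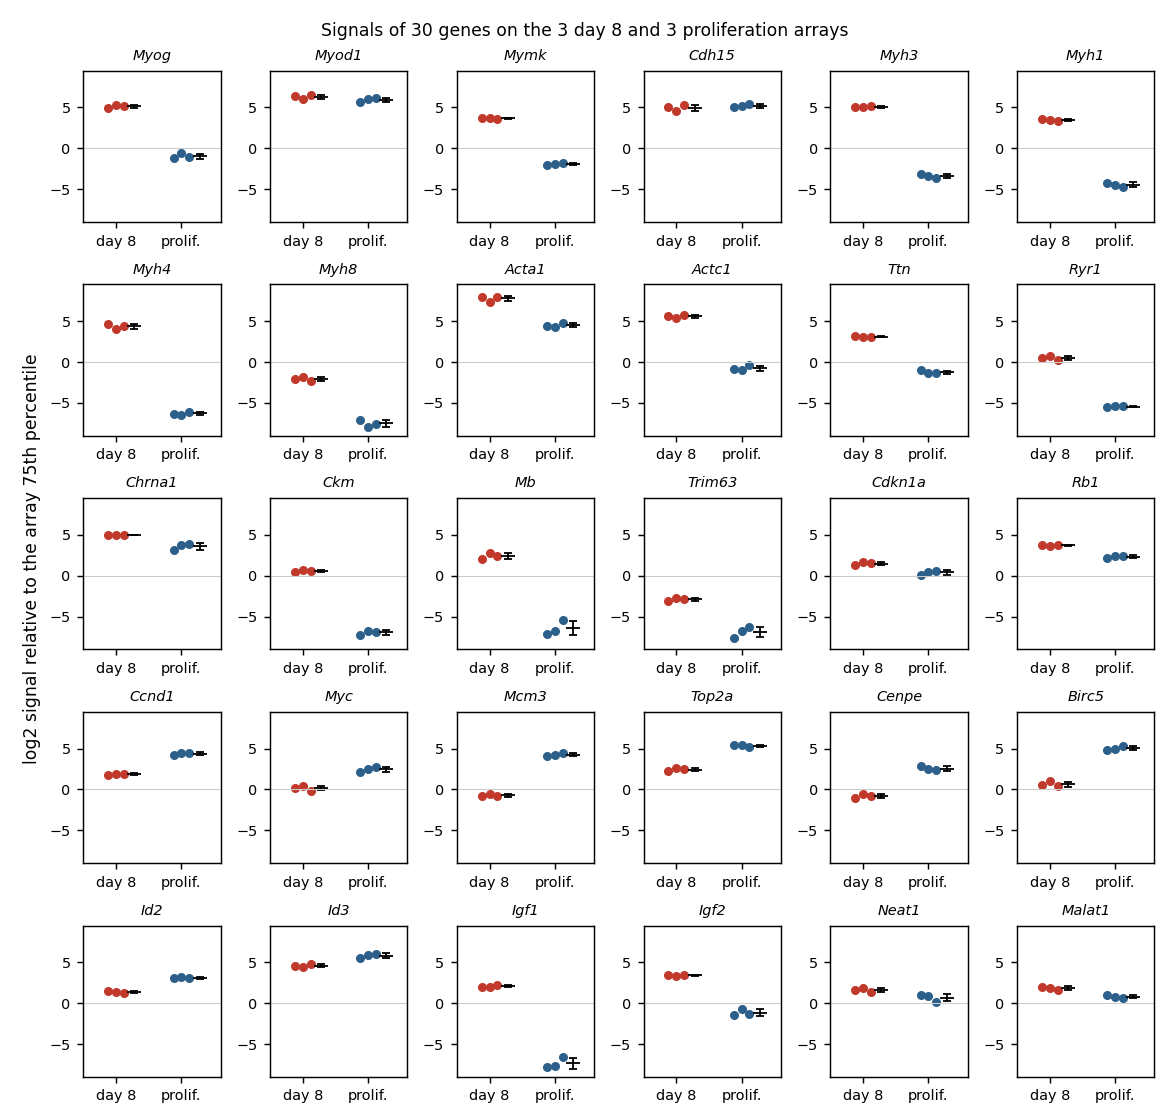
The log2 signal relative to the array's 75th percentile (vertical axis, same scale throughout) of 30 genes is plotted for the 3 day 8 arrays (red, left) and the 3 proliferation arrays (blue, right), with the mean and SD in black. Myh4 has the widest gap, Cdh15 has overlapping groups, and the genes of replication and mitosis from Mcm3 to Birc5 lie lower at day 8.

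The lists of contractile and sarcomere genes had the highest median log2 fold changes of all gene lists. Of 12 tested myosin heavy chain genes 8 rose and 1 fell (median 3.05). Myh4, the fast IIb heavy chain of adult muscle, had 4.65, 3.99 and 4.45 at day 8, against -6.33, -6.44 and -6.09 in proliferation. Its log2 fold change of 10.65 ± 0.24 (adjusted p = 5.03e-10) was the largest of all named genes, and it was well above background on 1 of the 3 proliferation arrays. Myh1, the fast IIx chain, had 3.53, 3.48 and 3.31 at day 8, against -4.20, -4.43 and -4.77 in proliferation. Myh3, the embryonic chain, had 5.00, 5.02 and 5.17 at day 8, against -3.18, -3.33 and -3.62 in proliferation. Both adult fast chains and the embryonic chain thus stood well apart, with log2 fold changes of 7.91 ± 0.25 for Myh1 and 8.44 ± 0.21 for Myh3. Myh8, the perinatal chain, had -2.12, -1.79 and -2.30 at day 8, against -7.05, -7.90 and -7.56 in proliferation. Since no proliferation array had it well above background, the rise is given as at least 25.5-fold. The non-muscle chain Myh10 was the list's only fall, by 0.55 ± 0.13 (adjusted p = 0.494 with slide as a block), and the non-muscle chain Myh9 had -0.18 (adjusted p = 0.423).

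Of 12 myosin light chains and myosin-binding proteins 9 rose and 1 fell (median 3.53). Mybpc2, the fast form of myosin-binding protein C, was at least 155-fold higher at day 8. Its log2 fold change was as low as 5.04 over the alternative ways of processing. Myl2, the slow and ventricular regulatory light chain, averaged 2.09 ± 0.63 at day 8 and -6.65 ± 0.43 in proliferation (SD, n = 3 each), and was well above background on 1 proliferation array. Mybph rose by 7.41 ± 0.21. Myl7, the atrial light chain, was the exception in this list: it was not well above background on any day 8 array and was at least 3.71-fold lower there, a call that was lost after normexp. Over the alternatives its log2 fold change ranged from -4.13 to -0.06, so that bound holds only for the main processing.

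Thin filament genes rose in 15 of 22 cases and fell in 5 (median 3.57). Actc1, the cardiac actin also used in young muscle, had 5.59, 5.42 and 5.74 at day 8, against -0.80, -1.0 and -0.40 in proliferation. Acta1, the skeletal actin, had 7.98, 7.40 and 7.96 at day 8, against 4.43, 4.28 and 4.79 in proliferation. Neither gene's groups overlapped, and the log2 fold change was 6.31 ± 0.25 for Actc1 and 3.28 ± 0.22 for Acta1. The troponins rose most, with 8.04 ± 0.27 for the fast calcium-binding subunit Tnnc2, 7.66 ± 0.26 for fast Tnnt3 and 6.79 ± 0.20 for slow Tnni1. Tpm3 fell by 1.17, Tpm1 by 1.05 and Tmod4 by 0.95, and with slide as a block these were no longer called (adjusted p = 0.148, 0.656 and 0.191). All 15 rises were kept with slide as a block, and none of the 5 falls was. Without proliferation array 2 or 3, or without day 8 array 2, 3 genes fell, and Tmod4 was not called without any of these or without day 8 array 1.

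Z-disc, M-band and titin genes had 20 of 24 members higher and 2 lower (median 4.06). Ttn, the giant spring of the sarcomere, had 3.15, 3.09 and 3.05 at day 8, against -1.01, -1.35 and -1.36 in proliferation, a rise of 4.33 ± 0.16. Telethonin (Tcap), which caps titin, rose by 7.86 ± 0.23, the muscle LIM protein gene Csrp3 by 7.37 ± 0.21 and the calcineurin-binding Myoz2 by 7.24 ± 0.14. Tcap was well above background on 1 proliferation array, and its rise was as low as 5.06 over the alternatives. The 2 falls, of the stretch-responsive Ankrd1 (-1.01 ± 0.27) and of Xirp2 (-0.64 ± 0.19), were lost with slide as a block (adjusted p = 0.637 and 0.109). The fall of Xirp2 was also lost when proliferation array 1 or day 8 array 3 was left out, and without non-uniform spots, scaled on the spots kept, it had 0.01.

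Upstream windows of muscle genes are shown because these genes moved together and the letters of known muscle motifs can be read in them. The 250 bases before the annotated start were taken from the RefSeq promoter table (GRCm38.p6) and are written 5′ to 3′ on the gene's strand. In Myh4 (chr11:67237562-67237811, plus strand) capitals mark, in order, a MEF2 box, a CArG box (the serum response factor motif) and the E-box CAGCTG. In Acta1 (chr8:123894776-123895025, minus strand) they mark the E-box CAGCTG and a CArG box, and in Ckm (chr7:19410844-19411093, plus strand) the E-box CAGCTG.
Myh4: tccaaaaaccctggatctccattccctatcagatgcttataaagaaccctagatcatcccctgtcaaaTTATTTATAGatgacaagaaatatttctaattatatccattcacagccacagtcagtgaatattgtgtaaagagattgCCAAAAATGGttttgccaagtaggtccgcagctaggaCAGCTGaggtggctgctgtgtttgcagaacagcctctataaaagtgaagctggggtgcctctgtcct
Acta1: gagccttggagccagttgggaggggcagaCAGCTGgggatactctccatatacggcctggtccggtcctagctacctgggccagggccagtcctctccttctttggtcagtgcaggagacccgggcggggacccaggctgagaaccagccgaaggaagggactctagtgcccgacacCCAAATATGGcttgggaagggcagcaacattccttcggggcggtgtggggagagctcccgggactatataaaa
Ckm: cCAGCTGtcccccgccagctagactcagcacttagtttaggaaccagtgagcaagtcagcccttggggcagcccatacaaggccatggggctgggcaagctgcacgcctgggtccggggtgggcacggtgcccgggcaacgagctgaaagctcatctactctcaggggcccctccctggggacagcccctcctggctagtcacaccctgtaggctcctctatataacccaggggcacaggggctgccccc
Motifs were searched on both strands, and CAGCTG is also a form of the general E-box CANNTG. Of the 77 contractile, calcium and synapse genes that rose, 57 were in the table, with 68 windows. CAGCTG was in 32.4% of these windows, against 12.5% of the 13435 windows of all tested genes, and CANNTG in 79.4% against 58.9%. A MEF2 box was in 11.8% against 1.80%, and a CArG box in 10.3% against 1.32%. The GC-rich motif GGGCGG was in 30.9% against 53.9%. Among all named genes that rose over 4-fold, with 682 windows, CAGCTG was in 23.0%, a MEF2 box in 4.55% and a CArG box in 1.61%. These shares describe letters in windows and say nothing of binding.

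Calcium release and synapse genes rose alongside the sarcomere. Of 21 genes of excitation-contraction coupling and calcium stores 16 rose and 2 fell (median 2.29). Ryr1, the calcium release channel, had 0.44, 0.73 and 0.30 at day 8, against -5.55, -5.42 and -5.42 in proliferation, a rise of 5.95 ± 0.18. The calcium-binding store proteins Hrc, Casq1 and Srl rose by 7.38 ± 0.18, 7.0 ± 0.16 and 6.02 ± 0.22. Cacna1s, the voltage sensor that opens Ryr1, had -4.88, -5.37 and -5.01 at day 8, against -3.96, -4.15 and -4.31 in proliferation. It lay lower at day 8 on every array, by 0.95 ± 0.31 (adjusted p = 0.0215), but its signal was low. The call was lost with slide as a block (adjusted p = 0.607), after normexp or quantile normalization, without non-uniform spots when scaled on the spots kept, without proliferation array 1 or day 8 array 2, and over the median of its probes. Fkbp1a, a Ryr1 partner, was the other fall at -0.49 ± 0.19 (adjusted p = 0.0495), with an adjusted p of 0.301 with slide as a block, and it was lost under most other alternatives too, including when proliferation array 2 or 3 or day 8 array 1 or 2 was set aside. Sln, a small inhibitor of the calcium pump, rose by 2.29 ± 0.37 (adjusted p = 0.0807 with slide as a block). It was well above background on 1 proliferation array, and its rise was as low as 0.62 over the alternatives.

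Acetylcholine receptor and synapse genes had 9 of 14 members higher and 0 lower (median 1.08), and 6 rises were kept with slide as a block. The lowest log2 difference of the list was 0.04. Chrna1, the receptor's alpha subunit, had 4.99, 5.02 and 5.01 at day 8, against 3.17, 3.70 and 3.94 in proliferation, a rise of 1.41 ± 0.19. Chrng, the fetal gamma subunit, rose by 5.33 ± 0.20, and Chrne, the adult epsilon subunit, was at least 7.72-fold higher at day 8. Lrp4, the agrin receptor, rose by 3.51 ± 0.15, and by 1.51 ± 0.13 at its second probe. Of 13 membrane ion channels and pumps 9 rose and 1 fell (median 1.39). Fxyd1, a regulator of the sodium pump, rose by 2.35 ± 0.87 with a wide spread in proliferation (SD 2.41), and that probe's call was lost with slide as a block (adjusted p = 0.636) and without any of the arrays but proliferation 3. Its 3 other probes, none well above background on a proliferation array, were called higher too, at an adjusted p of 2.64e-06, 3.69e-07 and 0.000977 with limma. The pump subunit Atp1b1 fell by 1.33 ± 0.32 (adjusted p = 0.96 with slide as a block).

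Genes of energy metabolism moved in both directions, and some muscle isoforms had large rises while others were not called. Of 12 genes of creatine, purine and oxygen buffering 8 rose and 2 fell. Ckm, the muscle creatine kinase, had 0.43, 0.66 and 0.52 at day 8, against -7.22, -6.71 and -6.89 in proliferation. Mb, myoglobin, had 2.04, 2.78 and 2.41 at day 8, against -7.08, -6.71 and -5.36 in proliferation. Each was well above background on 1 proliferation array, and their log2 fold changes were 7.48 ± 0.23 and 8.79 ± 0.41. Pygm, the muscle glycogen phosphorylase, rose by 5.36 ± 0.21. Gatm, which makes the creatine precursor, fell by 2.37 ± 0.36, and the creatine transporter Slc6a8 by 0.61 ± 0.16, both lost with slide as a block (adjusted p = 0.688 and 0.305). The mitochondrial creatine kinase Ckmt2 had 0.75 (adjusted p = 0.109) and the adenylate kinase Ak1 0.08 (adjusted p = 0.726). Glycolysis and glycogen genes had 7 of 28 members higher, 5 lower and a median of 0.02, close to the median of all tested probes, -0.09, and with slide as a block 4 calls were kept in each direction. The muscle isoforms Pgam2 and Pfkm rose by 6.03 ± 0.42 and 1.6 ± 0.15, whereas the muscle enolase Eno3 had -0.16 (adjusted p = 0.738). The glycolytic enzyme Tpi1 fell by 2.01 ± 0.13, the glucose transporter Slc2a1 by 1.46 ± 0.12 and Pgk1 by 1.00 ± 0.23 (adjusted p = 0.189 with slide as a block). Without proliferation array 1, 9 genes of this list fell. Of 30 oxidative genes 7 rose and 10 fell, beside 26.8% and 30.9% of all gene symbols, and with slide as a block 3 rose and 0 fell. The muscle cytochrome oxidase subunits Cox6a2 and Cox8b rose by 7.14 ± 0.20 and 5.67 ± 0.19, and Pdk2, which slows pyruvate oxidation, by 2.34 ± 0.22. Tfam, which maintains mitochondrial DNA, fell by 1.02 ± 0.22, and the nuclear receptor Esrrb by 1.29 ± 0.18, but not with slide as a block (adjusted p = 0.0846 and 0.224).

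Protein turnover genes rose without a fall, with 14 of 24 ubiquitin ligase and autophagy genes higher (median 0.74), 9 of them also with slide as a block. Trim63, the muscle ubiquitin ligase MuRF, had -3.06, -2.69 and -2.89 at day 8, against -7.62, -6.73 and -6.33 in proliferation, a rise of 4.01 ± 0.29. It was well above background on 1 proliferation array, and its rise was as low as 2.11 over the alternatives. The kelch proteins Klhl41 and Klhl31 rose by 6.22 ± 0.17 and 4.36 ± 0.19. Of 25 heat shock and unfolded protein genes 8 rose and 6 fell, of which 3 and 2 were kept with slide as a block. The small heat shock proteins Hspb7 and Hspb3 were at least 55.1-fold and at least 36.2-fold higher, while the inducible chaperone Hsp90aa1 fell by 1.87 ± 0.19. Hspb6 and Atf3 fell by 1.54 and 1.24, not with slide as a block (adjusted p = 0.0744 and 0.438). Among 14 muscle splicing regulators 5 rose and 4 fell, and the block kept 4 and 1. Rbfox1 was at least 16.3-fold higher, the kinase Srpk3 rose by 6.96 ± 0.29 and Rbm24 by 5.28 ± 0.13. Ptbp1, which represses many muscle exons, fell by 1.49 ± 0.17 and Celf1 by 1.51 ± 0.28 (adjusted p = 0.0505 and 0.0527 with slide as a block).

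Genes of DNA replication and mitosis fell almost without exception. Of 37 DNA replication genes 36 fell and 0 rose (median -2.63). The remaining gene, Rrm1, a subunit of ribonucleotide reductase, had -0.73 (adjusted p = 0.0618). Mcm3, part of the replicative helicase, had -0.85, -0.51 and -0.78 at day 8, against 4.07, 4.19 and 4.47 in proliferation, a fall of 4.96 ± 0.29. Top2a, which untangles replicated DNA, had 2.24, 2.58 and 2.50 at day 8, against 5.38, 5.38 and 5.21 in proliferation, a fall of 2.88 ± 0.17. The thymidine kinase Tk1 and the initiation factor Mcm10 fell by 4.35 ± 0.18 and 4.31 ± 0.22. All 36 falls were kept with slide as a block. All 46 tested mitosis genes fell (median -3.18), and 42 did so with slide as a block. Cenpe, a kinetochore motor, had -1.08, -0.59 and -0.86 at day 8, against 2.90, 2.45 and 2.33 in proliferation, a fall of 3.40 ± 0.20. Birc5 (survivin), Ndc80 and Knl1, all needed for chromosome attachment, fell by 4.44 ± 0.23, 4.03 ± 0.49 and 3.98 ± 0.34.

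Of 29 E2F factors, cyclins and related genes 25 fell and 2 rose (median -1.72), and 18 of the falls and 1 rise were kept with slide as a block. Ccnd1, the cyclin that responds to mitogens, had 1.77, 1.92 and 1.92 at day 8, against 4.16, 4.41 and 4.50 in proliferation. Myc, a growth transcription factor, had 0.17, 0.39 and -0.13 at day 8, against 2.18, 2.50 and 2.73 in proliferation. The log2 fold change was -2.49 ± 0.14 for Ccnd1 and -2.33 ± 0.22 for Myc, with no overlap of groups. Ccnf fell by 5.38 ± 0.37, Mybl2 by 3.78 ± 0.14 and Ccna2 by 3.5 ± 0.18. The 2 rises were of Ccnd3, a D cyclin kept in differentiated muscle (0.74 ± 0.18, lost after normexp), and of Tfdp2 (0.65 ± 0.22, adjusted p = 0.483 with slide as a block). When proliferation array 1 or 2 or day 8 array 1 or 3 was set aside, Tfdp2 was not called and 1 gene of this list rose.

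Inhibitors of cyclin-dependent kinases and pocket proteins did not move as a group, with 5 of 15 higher and 4 lower, of which 2 each were kept with slide as a block. Cdkn1a had 1.32, 1.62 and 1.54 at day 8, against 0.12, 0.50 and 0.63 in proliferation. Cdkn1c had -2.99, -3.22 and -2.91 at day 8, against -5.33, -4.18 and -4.26 in proliferation. Both were higher on every day 8 array, by 1.08 ± 0.15 and 1.55 ± 0.27, but with slide as a block the adjusted p was 0.06 for Cdkn1a and 0.23 for Cdkn1c. Rb1, the retinoblastoma protein, rose by 1.38 ± 0.12 and Gadd45a by 2.08 ± 0.11, while the related pocket protein gene Rbl1 fell by 2.00 ± 0.28. Mdm2, which degrades p53, fell by 1.2 ± 0.14.

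Replication-dependent histone genes split, with 20 of 37 lower and 8 higher (median -0.53), of which 13 and 2 were kept with slide as a block. H3c3, H2ac11 and H3c8 fell by 3.51 ± 0.29, 3.36 ± 0.21 and 3.22 ± 0.19. H2ac6, not well above background on any proliferation array, was at least 4.22-fold higher at day 8, a call lost with a common floor on dim signals, and the linker histone gene H1f2 rose by 1.47 ± 0.15. Histone genes are near-identical in sequence, so their probes may share signal. Ribosome biogenesis factors fell in 22 of 26 cases and rose in 0 (median -1.07). Nop56, a core protein of nucleolar snoRNPs, fell by 4.77 ± 0.41, Nhp2 by 2.58 ± 0.20 and Nop58 by 3.22 ± 0.38 (adjusted p = 0.106 with slide as a block). With slide as a block 8 of these genes fell.

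The windows of Cdk1, a mitotic kinase that fell by 3.45 ± 0.40, and of Cdc20, an activator of the ligase that ends mitosis that fell by 2.69 ± 0.16, are shown because both hold CCAAT and TTTGAA, each of which was found more often in windows of fallen mitosis, E2F and cyclin genes than in those of all tested genes. In Cdk1 (chr10:69352913-69353162, minus strand) and Cdc20 (chr4:118437344-118437593, minus strand) of GRCm38.p6, capitals mark CCAAT boxes on either strand and the cell cycle homology region TTTGAA.
Cdk1: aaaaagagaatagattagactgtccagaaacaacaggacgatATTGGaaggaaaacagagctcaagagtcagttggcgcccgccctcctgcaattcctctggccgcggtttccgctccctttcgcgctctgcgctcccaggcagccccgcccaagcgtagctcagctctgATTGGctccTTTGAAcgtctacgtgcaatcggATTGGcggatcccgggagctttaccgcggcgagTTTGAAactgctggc
Cdc20: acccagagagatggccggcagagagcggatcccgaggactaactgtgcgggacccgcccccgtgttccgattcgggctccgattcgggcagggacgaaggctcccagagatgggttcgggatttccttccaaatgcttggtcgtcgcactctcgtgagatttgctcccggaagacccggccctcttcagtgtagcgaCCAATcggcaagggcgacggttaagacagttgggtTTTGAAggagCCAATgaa
Cdk1 holds 3 CCAAT boxes and 2 TTTGAA motifs, and Cdc20 holds 2 and 1. In the 64 windows of fallen mitosis, E2F and cyclin genes CCAAT was in 68.8%, against 35.3% of the windows of all tested genes, and TTTGAA in 32.8%, against 11.1%. In the 35 windows of fallen replication genes CCAAT was in 57.1%, TTTGAA in 11.4%, and the E2F motif TTTGGCGC in 8.57%, against 0.648% of all. The other E2F form searched, TTTCCCGC, was in 5.71% of them, against 1.52%. Among all named genes that fell over 4-fold, CCAAT was in 39.3% and TTTGAA in 15.8% of 758 windows.

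Matrix genes rose in most cases, though not all. Of 21 collagen chains 14 rose and 4 fell (median 1.92), of which 10 and 1 were kept with slide as a block. The collagen VI chains Col6a2 and Col6a1 rose by 5.73 ± 0.16 and 4.58 ± 0.25, and Col8a2 by 5.72 ± 0.20. Col8a2 was well above background on 1 proliferation array. Col7a1 fell by 3.21 ± 0.31, while the falls of Col1a1 (-1.79 ± 0.46), Col18a1 (-1.17 ± 0.18) and Col4a2 (-0.68 ± 0.18) were lost with slide as a block (adjusted p = 0.71, 0.121 and 0.369). Of 32 matrix proteoglycans and proteases 22 rose and 5 fell (median 1.61), and the block kept 16 and 1. Cilp, a secreted matrix protein of cartilage, had 2.84, 2.47 and 3.04 at day 8, against -5.69, -7.83 and -6.89 in proliferation. Its rise of 9.58 ± 0.44 came next to that of Myh4 among all named genes, each taken at its brightest tested probe. Cilp was well above background on 2 proliferation arrays. The leucine-rich proteoglycans Prelp and Dcn rose by 5.23 ± 0.14 and 4.64 ± 0.19. Thbs2 fell by 1.34 ± 0.15, and Mmp10 and Timp1 by 1.36 and 1.19 (adjusted p = 0.0575 and 0.346 with slide as a block). Integrins, laminins and dystrophin complex genes had 13 of 29 members higher and 4 lower, and the block kept 10 and 1. Itgb1bp2, the muscle integrin-binding protein melusin, was at least 51.0-fold higher, and Itga11 rose by 5.62 ± 0.23. The nidogens diverged, with Nid2 higher by 2.66 ± 0.16 and Nid1 lower by 1.19 ± 0.13.

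The insulin-like growth factors rose strongly. Igf1 had 2.04, 2.04 and 2.26 at day 8, against -7.81, -7.72 and -6.56 in proliferation, where 1 array was well above background. Igf2 had 3.41, 3.37 and 3.43 at day 8, against -1.45, -0.69 and -1.28 in proliferation. The log2 fold change was 9.47 ± 0.31 for Igf1 and 4.54 ± 0.29 for Igf2. The other Igf1 probes, none well above background on a proliferation array, had 10.48 ± 0.27, 9.83 ± 0.22 and 10.01 ± 0.27. In the whole axis 11 of 19 genes rose and 4 fell, of which 6 and 2 were kept with slide as a block. Igfbp4 rose by 3.83 ± 0.23, while Igfbp2 fell by 1.59 ± 0.15 and the RNA-binding Igf2bp3 by 1.53 ± 0.13. TGF-beta, BMP and activin genes had 14 of 26 members higher and 6 lower, and the block kept 6 and 1. The ligand Bmp4 rose by 3.16 ± 0.23, the receptor Tgfbr2 by 1.99 ± 0.21 and the activin and myostatin antagonist Fst by 2.49 ± 0.22. The BMP antagonist Grem1 fell by 3.31 ± 0.18, while the fall of Nog by 3.01 ± 0.55 had a value of -0.56 with slide as a block (adjusted p = 0.728).

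Growth factor receptors and feedback genes had 8 of 24 members higher and 12 lower, of which 5 and 7 were kept with slide as a block. Fgf21, a secreted metabolic factor, rose by 6.27 ± 0.30 and the PDGF receptor Pdgfrb by 2.52 ± 0.23. The EGF receptor ligand Areg fell by 3.86 ± 0.18, and the MAP kinase feedback and target genes Dusp4 and Etv4 fell by 2.48 ± 0.17 and 2.23 ± 0.14. Immediate early genes had 7 of 19 higher and 3 lower, with 2 of each kept by the block, and the AP-1 subunits moved apart. Fos rose by 2.42 ± 0.18 and Fosl2 by 1.38 ± 0.25, whereas Fosl1 fell by 4.11 ± 0.27. Egr1 rose by 2.13 ± 0.45, with an adjusted p of 0.23 with slide as a block. Among 20 cytokines and myokines 8 rose and 5 fell, and the block kept 6 and 3. Cxcl14, Il15 and Ccl8 rose by 6.10 ± 0.55, 3.27 ± 0.21 and 2.09 ± 0.16, and Angptl4, a lipase inhibitor, fell by 3.42 ± 0.31, as did the chemokine Ccl2 by 2.51 ± 0.37. Without day 8 array 1 or 3, 3 genes of this list fell.

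Interferon response genes rose in 18 of 26 cases and fell in 1 (median 0.87), but 7 rises were kept with slide as a block. Ifit3 and Isg15, from signals near background in proliferation, rose by 3.16 ± 0.17 and 2.12 ± 0.23. The fall, of Ifi35 by 0.77 ± 0.29 (adjusted p = 0.0424), was lost with slide as a block (adjusted p = 0.305), after normexp, after quantile normalization and when proliferation array 2 or 3 or day 8 array 1 or 3 was set aside. Sterol and fatty acid synthesis genes had 12 of 28 members higher and 4 lower (median 0.18), or 4 and 0 with slide as a block. Srebf1, which activates lipid synthesis genes, rose by 1.74 ± 0.12. Imprinted genes had 8 of 17 higher and 4 lower, of which 3 and 2 were kept with slide as a block, with Grb10, an adaptor that dampens insulin signalling, higher by 2.17 ± 0.19, and Peg12 and Plagl1 lower by 2.29 ± 0.11 and 1.66 ± 0.13.

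Non-coding transcripts, the declared interest of the series, changed in both directions. Of 179 tested probes of curated non-coding RNAs 31 (17.3%) rose and 64 (35.8%) fell, or 53.1% together. The 5943 probes of other transcripts, mostly cDNA clones and known-gene models with no symbol, had 1367 rises (23.0%) and 1642 falls (27.6%), or 50.6% together. Of 15787 mRNA probes 28.1% rose and 30.1% fell, or 58.2% together. Of 140 probes of ultraconserved elements 16 (11.4%) rose and 41 (29.3%) fell. Malat1, an abundant nuclear RNA, had 2.04, 1.85 and 1.59 at day 8, against 1.01, 0.74 and 0.60 in proliferation. Neat1, the scaffold of paraspeckles, had 1.63, 1.87 and 1.37 at day 8, against 1.00, 0.92 and 0.16 in proliferation. Both were higher on every day 8 array, by 1.04 ± 0.16 and 0.93 ± 0.26, but neither call was kept with slide as a block (adjusted p = 0.202 and 0.498). Tug1 rose by 1.26 ± 0.17, although its second probe was not called, and Norad, a cytoplasmic RNA that binds Pumilio proteins, rose by 1.22 ± 0.18. The snoRNA host Snhg3 fell by 1.25 ± 0.11, Snhg1 by 0.70 ± 0.15 (lost after normexp) and Snhg6 by 0.91 ± 0.32 (adjusted p = 0.204 with slide as a block). The call of Snhg6 was also lost when proliferation array 2 or 3 or day 8 array 1 or 3 was set aside. Miat had -1.61 ± 0.70 (adjusted p = 0.0713), with an SD of 1.48 in proliferation, and passed the test without proliferation array 3. H19, Meg3, Mymx, Mrln and Strit1 were not analysed here.

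Among transcripts without a symbol the largest rises were of uc009use (6.82 ± 0.21), AK020587 (6.57 ± 0.22), uc009sqw (6.39 ± 0.20) and uc007cud (6.37 ± 0.39). AK017368 was not well above background on any proliferation array, and its rise was at least 69.6-fold. The largest falls were of AK015549 (-5.52 ± 0.27), uc007axg (-5.41 ± 0.65), uc008ojd (-4.95 ± 0.18) and uc007phu (-4.40 ± 0.17). AK083336 followed at -4.27 ± 0.42, with an adjusted p of 0.0628 with slide as a block. The probe of uc007axg was well above background on 1 day 8 array and had an SD of 1.39 in proliferation. Its fall ranged from -6.9 to -1.84 over the alternatives, so its rank is uncertain. No gene is assigned to these transcripts here.

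The arrays of days 2 and 5 place these changes in time, on the same scale. Of the 3091 probes that rose over 2-fold by day 8, 68.0% were highest at day 8, 28.9% at day 5 and 3.14% at day 2, and a median of 39.0% of the log2 change was present by day 2 and 86.9% by day 5. Of the 3860 that fell over 2-fold, 78.9% were lowest at day 8, with medians of 26.4% by day 2 and 76.6% by day 5. The probes were chosen by the day 8 and proliferation means that these shares use, so the shares are descriptions. Replication genes had made a median of 8.8% of their fall by day 2 and 73.5% by day 5, and all 36 were lowest at day 8. Ribosome biogenesis factors with over 2-fold falls had made 69.8% of theirs by day 2. Thin filament genes had made 29.7% of their rise by day 2 and 99.5% by day 5, and 7 of 15 were highest at day 5. Myog averaged -0.98 in proliferation, 1.84 at day 2, 6.55 at day 5 and 5.12 at day 8, so its highest mean came before the last stage. Myh4 averaged -6.29, -4.50, 0.05 and 4.36 over the same stages and was highest at the last.

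**Figure D3:**
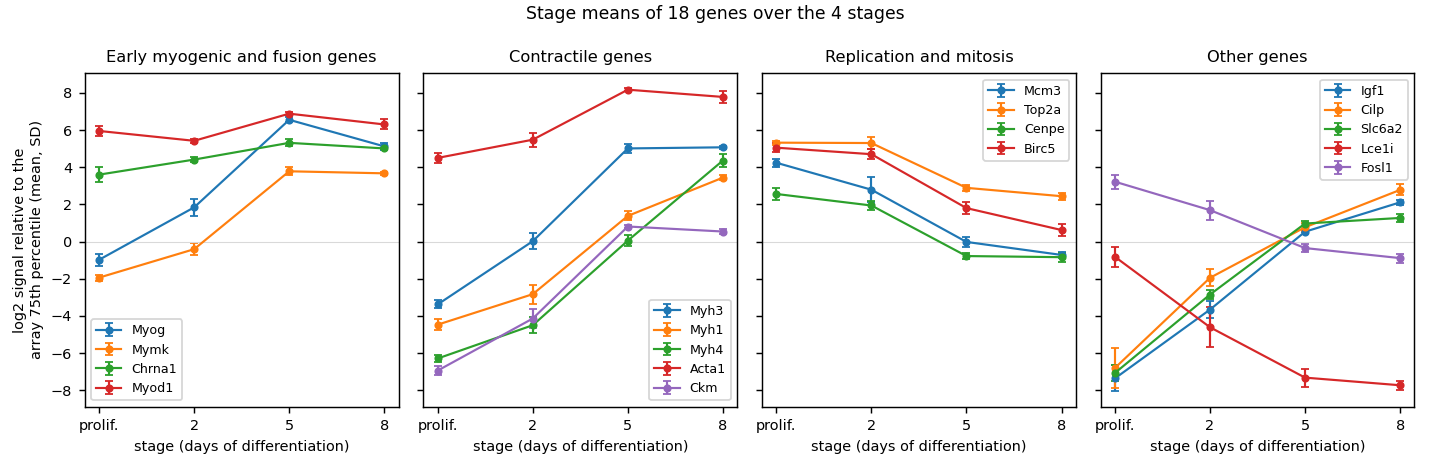
Stage means of 18 genes (log2 signal relative to the array's 75th percentile, with SD over 3 arrays) are joined from proliferation through days 2, 5 and 8. Myog has its highest mean, 6.55, at day 5, Myh4 climbs to 4.36 at day 8, and the replication and mitosis genes fall most between days 2 and 5 and lie lowest at day 8.

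How far a change kept its call with slide as a block followed its size. Of 2371 probes called with over 4-fold changes 73.4% were still called in the same direction, of 4580 with 2- to 4-fold changes 37.0%, and of 5401 with smaller changes 6.0%. The sign was the same for 97.8%, 95.8% and 96.2% of them. Among the 828 tested genes of the lists, 371 were called in both fits, 245 without the block only and 4 with it only.

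**Figure D4:**
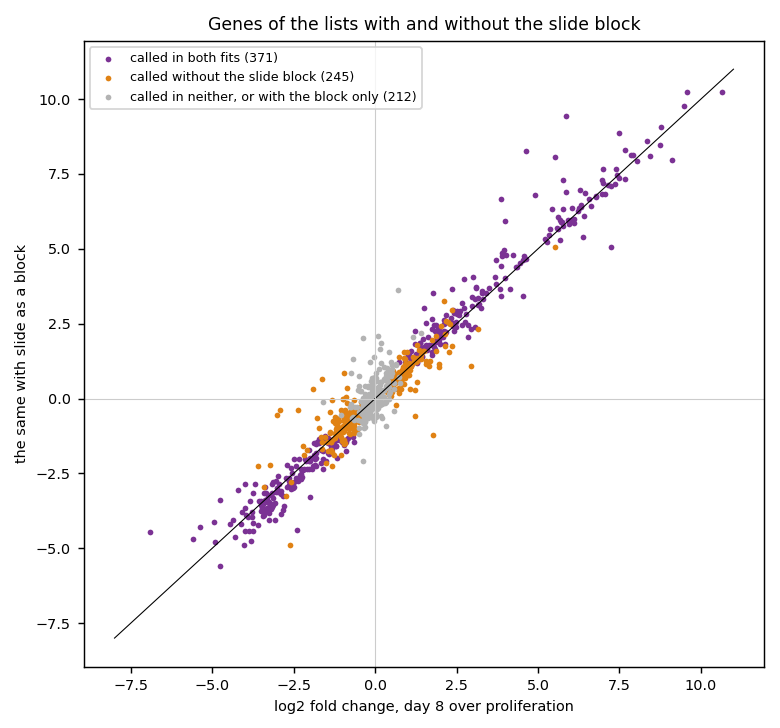
Each point is 1 of the 828 tested genes of the lists, with its log2 fold change (day 8 over proliferation) on the horizontal axis and the same with slide as a block on the vertical axis, and the line marks equal values. The 371 genes called in both fits (purple) lie along the line on both sides, and the 245 called without the block only (orange) lie mainly between -2.5 and 2.5.

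Markers of other lineages were also measured. Endothelial and mural markers had a summed linear signal of 52.4 to 70.8 times the array's 75th percentile on day 8 arrays and of 9.66 to 16.8 on proliferation arrays, with 8 of 13 tested, 3 higher and 4 lower, of which 2 each were kept with slide as a block. Pdgfrb, described above, made up 49.3 to 67.8 of that sum at day 8 and 6.95 to 13.6 in proliferation. Without it the sum was 2.81 to 3.1 at day 8 and 2.57 to 3.16 in proliferation. The receptor Tek rose by 1.98 ± 0.17, while Flt1 and Kdr fell by 3.38 ± 0.18 and 3.18 ± 0.26. Kdr was well above background on 1 day 8 array. Pecam1, Tie1, Emcn, Rgs5 and Cnn1 were not well above background. Satellite and reserve cell markers summed to 49.7 to 54.5 at day 8 and 39.6 to 43.1 in proliferation, with 7 of 14 higher and 5 lower, and the block kept 4 and 1. Among them the chemokine receptor Cxcr4 rose by 1.89 ± 0.21 and the neurotrophin receptor Ngfr fell by 3.75 ± 0.28. Adipocyte markers summed to 35.7 to 42.6 at day 8 and 38.3 to 52.1 in proliferation. Cebpb, which was not called (-0.1, adjusted p = 0.64), carried most of this, and without it the sum was 1.94 to 2.16 at day 8 and 4.47 to 5.45 in proliferation. Of these markers 9 of 12 were not well above background, Adipoq, Fabp4 and Plin1 among them, while Pparg fell by 1.54 ± 0.14. Osteoblast and cartilage markers summed to 112 to 161 at day 8 and 133 to 191 in proliferation. Spp1, which was not called (-0.12, adjusted p = 0.617), carried most of this, and without it the sum was 12.8 to 13.7 at day 8 and 14.2 to 17.4 in proliferation. None of their 5 calls was kept with slide as a block. Their 2 rises numbered 0 or 1 without any array but proliferation 1. Macrophage markers summed to 0.878 to 1.01 at day 8 and 1.45 to 1.71 in proliferation, mostly from Cd14. Without Cd14 the sum was 0.26 to 0.31 at day 8 and 0.207 to 0.301 in proliferation. Of 6 tested macrophage markers 2 rose and 3 fell, and the block kept 1 of each. Ptprc, Adgre1 and Itgam were not well above background. The part of such cells in the results was not tested.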

How the data were processed

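RNA of 12 C2C12 cultures was measured on one-colour arrays. Per the submitters' processing notes, the authors read each array with Agilent Feature Extraction (version 10.5.1.1) and deposited its scanner output. The processed green signal, a deposited intensity from which that software had removed background per the file headers, was used, and the headers record no normalization across arrays. The annotation build named in the headers was not used for coordinates.

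The deposited intensity was converted to log2. Of 39448 spots, 1417 controls and 200 negative-probe spots were left out, spots of a probe were averaged without population outliers, and each array's 75th percentile was subtracted. Probes well above background on all 3 arrays of either stage were tested with limma 3.58.1 (lmFit, eBayes, R 4.3.3) in a fit of 4 stage means over 12 arrays, with Benjamini-Hochberg adjustment. A gene stands for its brightest tested probe. Spots flagged as non-uniform were kept. The normexp alternative (offset 50) ran on median spot and background signals, since the planned mean-signal column was not used here. The tests were run first on simulated data. Saturated spots numbered 0, and precision is limited by how few arrays there are.

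The members, gene lists and the rule for naming genes were chosen with earlier results of these data known. Named genes are fixed anchors, the 3 largest called rises and falls of each list, called members against their list's majority where these are 4 or fewer, and the 10 largest rises and falls overall. Some genes that this rule names are not reported here. Myf6, Twist2, Myh9, Rrm1, Cdk1, Cdc20, Ckmt2, Ak1, Eno3, Cebpb, Spp1 and Cd14 were added after their values were seen. Symbols were updated through RefSeq (GRCm38.p6), and the promoter table matched 10566 of 13332 tested names.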

Additional observations from a re-analysis of the deposited data

How the results depend on the processing

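With slide as a fixed block 2249 probes rose and 1771 fell, against 5855 and 6497 without it. Leaving out non-uniform spots left 12799 probes to test, of which 4767 rose and 1117 fell with scaling on the spots kept and a median of 0.57, or 3348 and 3287 with scaling on all spots. The other alternatives stayed within 1.5 times: normexp gave 6776 and 4591 with a median of 0.13 against -0.09, quantile normalization 6633 and 5803, and no filter on dim probes 5186 and 7286. A random slide block gave 5592 and 6148, the 6 arrays alone 5537 and 6648, and a common floor on dim signals, chosen after seeing the data, 5685 and 6401. Leaving out 1 array gave 5112 to 5601 rises and 5725 to 6054 falls. The replicate block gave 5764 and 6488. Same-numbered day 8 and proliferation arrays correlated at 0.157, -0.021 and 0.143 in their deviations from the stage means. Differently numbered ones correlated at -0.176 to 0.05. Over all stages the median was 0.011 for same-numbered and -0.012 for differently numbered pairs. Whether the numbers pair the arrays was not tested. Signs turned for Col2a1 (0.12) and Hadha (0.01) under normexp (adjusted p = 0.136 and 0.258 with slide as a block). They also turned for Bin1 (0.32), Dtnb (0.04, adjusted p = 0.975) and Tmod4 (0.87) with slide as a block. Without non-uniform spots, scaled on the spots kept, they turned for Xirp2 (0.01) and Fkbp1a (0.16). Scaled on all spots, 0 signs turned. Of the 86 counts of risen or fallen genes in the lists, 54 moved by over 1.5 times with slide as a block, 61 of 84 without non-uniform spots with scaling on the spots kept and 60 of 84 with scaling on all spots (on the spots kept, replication falls then numbered 7 and mitosis falls 17, with fewer probes tested), and 11 and 2 of the 86 under normexp and with the replicate block. Apart from the smaller number of probes and the larger error with the slide block, the cause was not tested. Signals near background limit the size of many changes.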

Other observations

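A few genes with no clear place in the muscle lists were among the largest changes. Slc6a2, the noradrenaline transporter, rose by 8.35 ± 0.22 on the log2 scale and Dbh, the enzyme that makes noradrenaline, by 3.41 ± 0.17, while Th, which starts that pathway, was not well above background. Slc6a2 averaged 1.27 ± 0.23 at day 8 and -7.07 ± 0.44 in proliferation (SD, n = 3 each) and was well above background on 1 proliferation array. Both rises were kept with slide as a block (adjusted p = 3.95e-05 and 0.00055 with limma). The neural marker Map2 rose by 1.11 ± 0.15 (adjusted p = 0.0791 with slide as a block). The neurofilament genes Nefm and Nefl fell by 4.76 ± 0.20 and 3.74 ± 0.16. Of 11 tested neural markers 3 rose and 8 fell, of which 2 and 3 were kept with slide as a block. Their summed linear signal was 23.2 to 24.6 times the array's 75th percentile at day 8 and 67.5 to 80.4 in proliferation. Abra, an actin-binding activator of serum response factor signalling, Art1, a muscle ADP-ribosyltransferase, and R3hdml rose by 8.72 ± 0.18, 8.30 ± 0.17 and 8.13 ± 0.23.

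Some genes of the cornified envelope, known from keratinocytes, were measurable in proliferating cells. Of the 25 on the array 11 were not tested, as neither stage had them well above background on all 3 arrays. Of 14 tested 11 fell and 0 rose (median -2.66), and 7 falls were kept with slide as a block. Lce1i had -7.73, -7.48 and -7.98 at day 8, against -1.35, -0.88 and -0.25 in proliferation, the largest fall of all named genes at -6.91 ± 0.47. Sprr2h and Lce1h fell by 5.6 ± 0.34 and 4.92 ± 0.27. At day 8 these probes were well above background on 1 or 2 of 3 arrays, so the size of the falls rests on signals near background. They passed the filter through proliferation alone, where they are high. Near-identical members of the family may share signal. Other large falls were of the histamine-forming enzyme Hdc (-5.69 ± 0.58), the glutathione transferase Gsta2 (-5.58 ± 0.24), Havcr2 (-5.42 ± 0.28), Glipr1 (-5.01 ± 0.27) and the protease inhibitor Serpinb2 (-4.98 ± 0.23). Hdc averaged -7.83 at day 8, and its fall ranged from -5.82 to -1.94 over the alternatives, so its size is uncertain.

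Of 14 genes often used as controls 2 rose and 7 fell (median -0.33), and 2 of the falls were kept with slide as a block. Tfrc, the transferrin receptor, fell by 1.31 ± 0.16, although its second probe was not called (-0.78 ± 0.34, adjusted p = 0.0686 with limma), and the ribosomal protein gene Rplp0 by 1.11 ± 0.15. The 2 rises, of Sdha (0.48) and B2m (0.43), were lost with slide as a block (adjusted p = 0.911 and 0.73) and numbered 0 or 1 when any array was left out.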
